A study of Mus musculus with 8 samples.

Results

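The insulin-like growth factor (IGF) genes described here are Igf1, Igf2, Igf1r, Igfbp2, Igfbp3, Igfbp4, Igfbp5, Igfbp6 and Igfbp7. They were taken by gene symbol, whatever their values, and make up 9 of the 35896 genes in a count table of mouse aorta. All 9 passed the filter on low counts, together with 17182 genes in all. The table holds 8 RNA-sequencing libraries of male C57BL6 mice, 2 in each of 4 groups, and each library pools the aortic tissue of 2 mice (16 mice). In 3 groups an osmotic minipump, implanted at 11 weeks of age, delivered angiotensin II at 2.8 mg/kg/d for 2 weeks. The vessels were collected when the infusion stopped (AngII), or 2 weeks (AngII+2W) or 3 weeks (AngII+3W) later. CTRL mice were untreated age-matched littermates, and their labels do not give the time of sacrifice. No gene was deleted or added in any group, no mock-infused group is among the libraries, and the later groups also carry 2 or 3 more weeks of age than AngII.

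IGF1 and IGF2 are secreted growth factors that act through the IGF1 receptor, a tyrosine kinase that signals to the PI3K-AKT and MAPK pathways. Most IGF outside cells is held by binding proteins, which carry it, keep it from the receptor, or release it near cells once proteases cleave them. In arteries, IGF1 is known as a growth and survival factor for vascular smooth muscle cells, and angiotensin II as a regulator of the system.

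Library totals ran from 18130441 to 21498200 counts. Levels are in CPM, that is counts per 1000000 after TMM scaling of library sizes, and 3 counts, taken as the floor of detection, equal 0.140 to 0.162 CPM. The 9 genes together took between 0.0984% and 0.223% of a library's counts. The markers of the vessel wall were present in all libraries, with summed levels of 735 to 996 CPM for 6 endothelial markers in every group. The sum of 7 smooth muscle markers was 7332 to 9416 CPM in CTRL, 1707 to 2156 CPM in AngII, 3534 to 3908 CPM in AngII+2W and 1731 to 3362 CPM in AngII+3W. Markers of cardiac and skeletal muscle were unevenly represented. The sum of 6 cardiac muscle markers ran from 15.7 CPM in an AngII+2W library to 4798 CPM in AngII+3W replicate 1, and CTRL replicate 1 was the next highest at 4071 CPM. AngII+3W replicate 1 also held 1396 CPM of 6 skeletal muscle markers, against 3.71 to 73.7 CPM elsewhere. For the 9 genes and the pathway genes called, results that changed their side of the threshold without these 2 libraries are given with and without them. In bulk tissue, fewer cells of a type and less RNA per cell cannot be told apart. Replicates are separate pools of mice, and with 2 pools in a group an exact permutation test cannot give a p below 0.33, so genes were tested with edgeR's quasi-likelihood F test over all 8 libraries. A gene was called higher or lower at a false discovery rate (FDR, Benjamini-Hochberg over 17182 genes) under 0.05.

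Levels of different genes were compared as CPM per 1000 bases of exon. On this scale the order in CTRL was Igfbp7 (290 ± 21.6, SD, n = 2), Igfbp5 (115 ± 37.3), Igfbp4 (40.5 ± 8.27), Igfbp6 (28.7 ± 2.72), Igf1 (9.43 ± 5.03), Igf1r (8.52 ± 1.12), Igfbp3 (4.47 ± 0.354), Igf2 (2.63 ± 0.656) and Igfbp2 (1.11 ± 0.229). The CTRL libraries of Igf1 and Igf1r overlapped, and no other neighbors in this order did. Transcripts of Igfbp4, Igfbp5, Igfbp6 and Igfbp7 were therefore more abundant than those of either growth factor. Igfbp3 was below Igf1, and Igfbp2 was below both growth factors. Igf2, the main growth factor of the fetus, was near the end of the list. Igfbp1, a binding protein made mainly by liver, had 0 counts in 6 of the 8 libraries and 3 counts in each AngII+2W library, and was not tested.

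**Figure D1:**
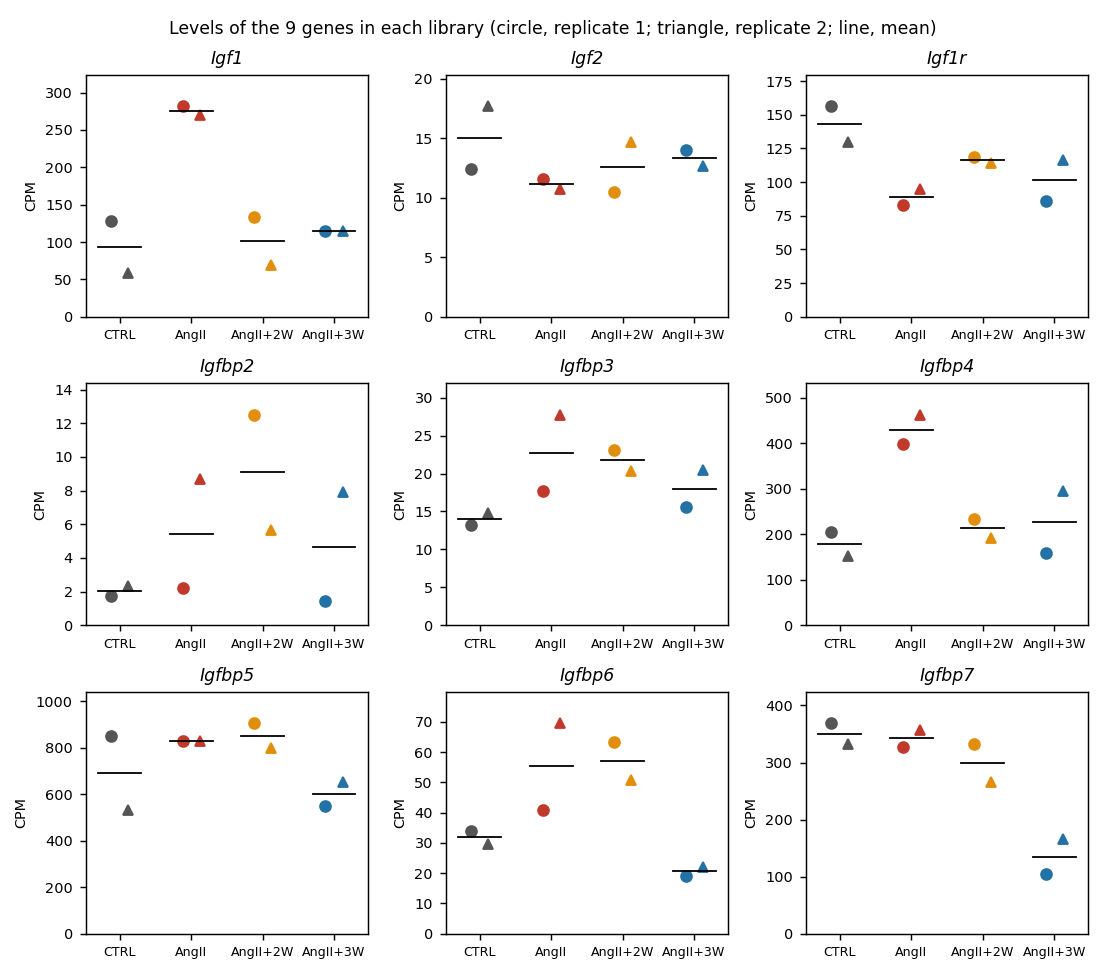
Level of each of the 9 genes in every library, in CPM (vertical axis, from 0) by group (horizontal axis). Circles are replicate 1, triangles replicate 2 and lines the mean of 2 libraries. Both AngII libraries lie above the other 6 for Igf1 and Igfbp4, and both AngII+3W libraries lie below the other 6 for Igfbp6 and Igfbp7.

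The growth factors differed in pattern, with Igf1 highest in AngII and Igf2 steady and low. Igf1 (ENSMUSG00000020053, GRCm38 chr10:87858265-87937042, plus strand) had 129 and 58.2 (CTRL), 282 and 270 (AngII), 134 and 69.9 (AngII+2W) and 115 and 114 CPM (AngII+3W). Both AngII libraries were higher than all 6 others, while CTRL, AngII+2W and AngII+3W overlapped. In AngII against CTRL the log2 fold change was 1.56 (SE 0.397, 95% interval 0.64 to 2.48), a 2.95-fold higher level, with an FDR of 0.0688 that missed the threshold. The size of this difference depended on the CTRL libraries, which themselves differed: it was 2.24 without CTRL replicate 1 and 1.09 without CTRL replicate 2. Against AngII, the log2 differences were -1.44 (FDR 0.153) in AngII+2W and -1.27 (FDR 0.157) in AngII+3W. Against CTRL they were 0.12 (95% interval -0.78 to 1.03) in AngII+2W and 0.29 (95% interval -0.61 to 1.198) in AngII+3W, intervals that leave room for a change of more than 1.5-fold either way.

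Igf2 (ENSMUSG00000048583, GRCm38 chr7:142650766-142666816, minus strand) had 12.4 and 17.7 (CTRL), 11.6 and 10.8 (AngII), 10.5 and 14.7 (AngII+2W) and 13.98 and 12.7 CPM (AngII+3W). Both AngII libraries were below both CTRL libraries, but the log2 difference of -0.43 (SE 0.227) did not pass (FDR 0.347), and the other differences were between -0.26 and 0.26. The read-through gene Gm49394 lies over Igf2 on the same strand and matches 76.2% of its longest transcript at 100% identity. It was listed with 0 counts in every library, so the split of reads between these 2 genes is uncertain. Igf1 exceeded Igf2 in every library, and the ratio of their levels per 1000 bases was 1.90 and 6.01 (CTRL), 14.1 and 14.5 (AngII), 2.75 and 7.35 (AngII+2W) and 4.75 and 5.21 (AngII+3W). The AngII libraries thus had the highest ratios, with no overlap with the other groups.

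Igf1r (ENSMUSG00000005533, GRCm38 chr7:67952827-68233668, plus strand), which encodes the receptor for both growth factors, had its highest levels in CTRL. It had 156 and 130 (CTRL), 82.6 and 94.8 (AngII), 119 and 114 (AngII+2W) and 85.8 and 117 CPM (AngII+3W). Every library taken after infusion was below both CTRL libraries. The log2 difference from CTRL was -0.69 (SE 0.179, FDR 0.0728) in AngII, -0.30 (FDR 0.614) in AngII+2W and -0.50 (FDR 0.308) in AngII+3W, and none passed. The summed level of the smooth muscle markers was also below both CTRL libraries in every library after infusion. Of the 7, edgeR called 6 lower in AngII, 0 in AngII+2W (7 at an unadjusted p under 0.05, and 5 by DESeq2) and 3 in AngII+3W against CTRL. Their part in the level of Igf1r was not tested. The summed level of both growth factor transcripts, relative to that of the receptor per 1000 bases, was 1.39 (range 1.16 to 1.63) in CTRL, 5.67 (5.15 to 6.20) in AngII, 1.79 (1.41 to 2.16) in AngII+2W and 2.36 (1.98 to 2.75) in AngII+3W. The AngII+3W libraries lay above CTRL and below AngII in this ratio, which is given as a description with no test.

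Among the binding proteins, 3 carry most of what changed or came nearest to the threshold, and the 250 bases before their RefSeq starts (GRCm38.p6) are shown for that reason. All 9 genes had a RefSeq promoter. Capitals mark TATAAA in Igfbp4, TATAAA (read on the reverse strand) and CCAAT in Igfbp6, and GGGCGG on either strand in Igfbp7.
Igfbp4, chr11:99040994-99041243, plus strand: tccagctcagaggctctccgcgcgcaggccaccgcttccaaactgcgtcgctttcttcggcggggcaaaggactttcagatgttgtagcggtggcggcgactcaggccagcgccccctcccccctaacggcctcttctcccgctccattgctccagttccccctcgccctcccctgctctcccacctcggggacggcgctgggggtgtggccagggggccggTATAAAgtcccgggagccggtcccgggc
Igfbp6, chr15:102143936-102144185, plus strand: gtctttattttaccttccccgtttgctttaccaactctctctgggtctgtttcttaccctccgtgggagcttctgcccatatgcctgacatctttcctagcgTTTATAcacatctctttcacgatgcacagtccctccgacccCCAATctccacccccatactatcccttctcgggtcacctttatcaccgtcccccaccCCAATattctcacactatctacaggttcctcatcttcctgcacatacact
Igfbp7, chr5:77408046-77408295, minus strand: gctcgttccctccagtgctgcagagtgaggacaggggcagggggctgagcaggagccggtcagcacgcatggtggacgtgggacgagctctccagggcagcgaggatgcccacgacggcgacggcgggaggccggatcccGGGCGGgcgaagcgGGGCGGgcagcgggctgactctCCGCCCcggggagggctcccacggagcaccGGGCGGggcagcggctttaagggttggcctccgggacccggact
These windows differ in makeup, with a GC content of 69.2% in Igfbp4, 49.6% in Igfbp6 and 74.0% in Igfbp7. Both strands were searched for TATAAA (the TATA box), for GGGCGG (the core bound by Sp1), for CCAAT (bound by NF-Y), for TGANTCA (bound by AP-1), for CACGTG (the E-box) and for the CArG box, the element bound by serum response factor in smooth muscle genes. The Igfbp4 window held TATAAA, 28 bases before the start. The Igfbp6 window held TATAAA at 148 bases and CCAAT at 107 and 50 bases before the start, and the Igfbp7 window held GGGCGG at 110, 96, 74 and 44 bases. The Igfbp6 window ends at 102144185, ahead of the annotated start of the gene at 102144362. Bases just after its RefSeq start were not found in an annotated Igfbp6 transcript, while those of Igfbp4 and Igfbp7 were. The Igfbp6 distances therefore hold for the RefSeq start only. Igfbp6 and Igfbp7 shared none of the motifs searched. Of 32851 RefSeq windows of the same length, 12.4% hold at least 1 TATAAA, 33.8% at least 1 CCAAT and 32.7% at least 1 GGGCGG, at any position. Windows with several copies, or with a match at a given distance from the start, were not counted. No 2 matches shown overlap. No CArG box was found in the 3 windows shown (1.47% of all windows hold one). Among the windows of the 9 genes, a CArG box was found in an Igf2 window (chr7:142661272-142661521), 155 bases before its start.

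Igfbp4 (ENSMUSG00000017493, GRCm38 chr11:99041244-99054392, plus strand) encodes a binding protein that holds IGF away from the receptor until the protease PAPP-A cleaves it. It had 205 and 153 (CTRL), 397 and 462 (AngII), 234 and 192 (AngII+2W) and 158 and 295 CPM (AngII+3W). Both AngII libraries were the highest of the 8, and the AngII+2W and AngII+3W libraries each overlapped the CTRL ones. In AngII the level was 2.40-fold that of CTRL (log2 1.26, SE 0.295, 95% interval 0.58 to 1.95), with an FDR of 0.0540, the smallest among the 9 genes in this comparison. The log2 difference was 0.25 (FDR 0.829) in AngII+2W and 0.34 (FDR 0.676) in AngII+3W against CTRL, and -1.01 (FDR 0.171) and -0.92 (FDR 0.163) against AngII. Without AngII+3W replicate 2, its higher library in that group, the difference of AngII+3W from AngII was -1.49 and passed (FDR 0.0190), and over the 8 fits that left out a library it ran from -1.49 to -0.54. The comparisons with CTRL share the CTRL libraries and those with AngII share the AngII libraries.

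Igfbp6 (ENSMUSG00000023046, GRCm38 chr15:102144362-102149511, plus strand) encodes a binding protein with a preference for IGF2. It had 34.0 and 29.7 (CTRL), 40.9 and 69.5 (AngII), 63.2 and 50.8 (AngII+2W) and 19.1 and 22.0 CPM (AngII+3W). The AngII and AngII+2W libraries were all above CTRL and the AngII+3W libraries all below it. The log2 difference from CTRL was 0.79 (SE 0.245, FDR 0.115) in AngII, 0.84 (SE 0.245, FDR 0.305) in AngII+2W and -0.63 (SE 0.248, FDR 0.350) in AngII+3W, none of which passed. The direct comparison of AngII+3W with AngII did pass: Igfbp6 was 2.69-fold lower (log2 -1.43, SE 0.250, 95% interval -2.01 to -0.85, FDR 0.0436).

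Igfbp7 (ENSMUSG00000036256, GRCm38 chr5:77349240-77408041, minus strand) encodes a secreted relative of the family with low affinity for IGFs, found in vessel walls. It had 369 and 332 (CTRL), 328 and 358 (AngII), 332 and 266 (AngII+2W) and 104 and 166 CPM (AngII+3W). CTRL and AngII overlapped, and the fall appeared in the AngII+3W libraries, the lowest of the 8. AngII+3W was 2.54-fold lower than AngII (log2 -1.35, SE 0.232, 95% interval -1.89 to -0.81, FDR 0.0428). Against CTRL the difference in AngII+3W was as large (log2 -1.38, SE 0.233) but missed the threshold with an FDR of 0.0657. In AngII against CTRL it was -0.03 (95% interval -0.56 to 0.50), and in AngII+2W -0.23 (95% interval -0.76 to 0.30). Igfbp7 overlaps Polr2b by 85 bases on the opposite strand, and Polr2b was steady at 54.4 to 60.9 CPM. It also overlaps the antisense gene Gm34648 by 7085 bases. These overlaps are of whole gene spans, introns included. The union of Igfbp7 exons is 1209 bases, and the authors mapped reads to cDNA sequences. The sources used here do not say whether counting used the strand.

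Both calls were close to the threshold. With library totals in place of TMM, the FDR was 0.0540 for Igfbp6 and 0.0569 for Igfbp7, and with only the AngII and AngII+3W libraries in the fit it was 0.173 and 0.174. Without each of the 8 libraries in turn, the call of Igfbp6 held only without AngII replicate 1 (FDR 0.0401) and without AngII+3W replicate 2 (0.0359), and that of Igfbp7 only without AngII+3W replicate 2 (0.00937). Leaving out AngII replicate 2, the highest library for Igfbp6, gave -1.001 for that gene (FDR 0.227), and leaving out AngII+3W replicate 1 gave -1.32 for Igfbp6 (FDR 0.141) and -1.04 for Igfbp7 (FDR 0.0938). The direction was kept in every one of these fits.

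The remaining binding proteins showed no change that passed. Igfbp5 (ENSMUSG00000026185, GRCm38 chr1:72857932-72874884, minus strand), which binds the extracellular matrix, had the highest CPM of the 9 genes. It had 850 and 533 (CTRL), 829 and 829 (AngII), 906 and 798 (AngII+2W) and 548 and 654 CPM (AngII+3W). The CTRL libraries alone covered most of the range of all 8, and the 5 log2 differences lay between -0.46 and 0.30. Igfbp3 (ENSMUSG00000020427, GRCm38 chr11:7206086-7213923, minus strand), the main carrier of IGF in blood, had 13.2 and 14.8 (CTRL), 17.7 and 27.8 (AngII), 23.2 and 20.3 (AngII+2W) and 15.5 and 20.5 CPM (AngII+3W). All 6 libraries after infusion were above CTRL, with log2 differences of 0.70 (FDR 0.146), 0.64 (FDR 0.395) and 0.37 (FDR 0.575) in the order of time. Igfbp2 (ENSMUSG00000039323, GRCm38 chr1:72824503-72852474, plus strand), a binding protein that can also attach to integrins, was the lowest and most uneven. It had 1.75 and 2.35 (CTRL), 2.21 and 8.67 (AngII), 12.5 and 5.64 (AngII+2W) and 1.45 and 7.90 CPM (AngII+3W). The 27 to 268 counts behind these values are well above the floor, and the spread lies between replicates: the largest log2 difference, 2.14 in AngII+2W against CTRL, had a 95% interval of 0.14 to 4.15 and an FDR of 0.435. Igfbp2 and Igfbp5 lie tail to tail, 5457 bases apart, and their patterns over the libraries differed.

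**Figure D2:**
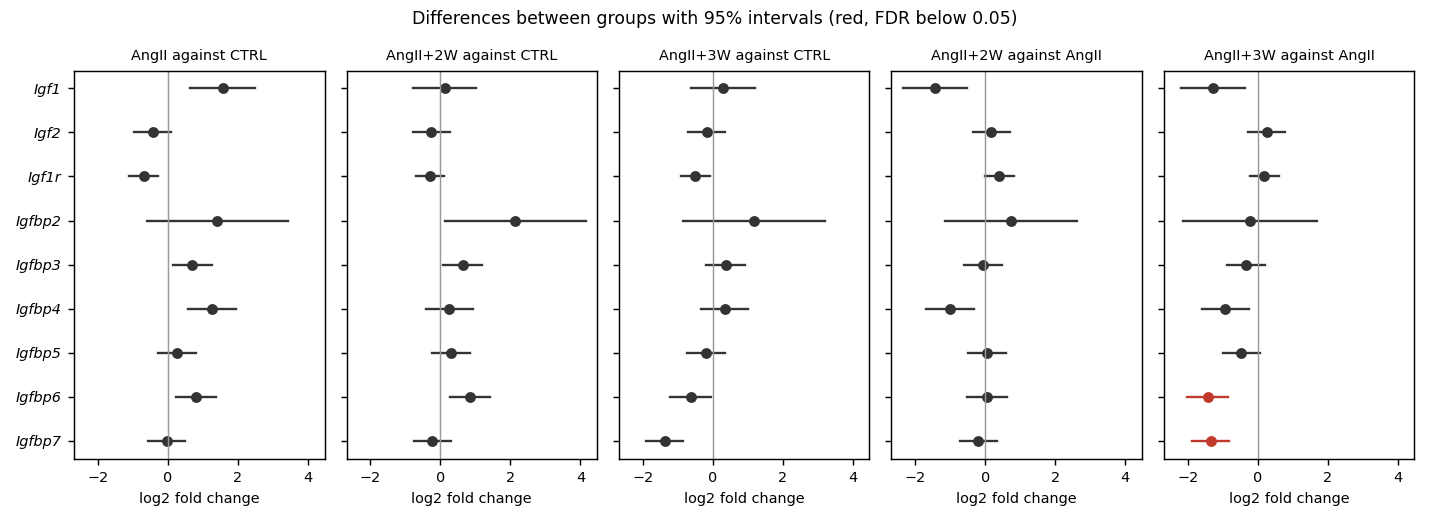
Log2 fold change (horizontal axis) of each of the 9 genes (vertical axis) in the 5 comparisons, with 95% intervals as bars, from edgeR's quasi-likelihood fit. Red marks an FDR under 0.05, reached by Igfbp6 and Igfbp7 in AngII+3W against AngII.

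Counted over the 9 genes, 0 were called by edgeR in AngII against CTRL, where 5.1% of all genes tested were called, while DESeq2 called 4 (Igf1, Igf1r, Igfbp4 and Igfbp6) and 9.24% of all genes. At an unadjusted p under 0.05 there were 5 (Igf1, Igf1r, Igfbp3, Igfbp4 and Igfbp6), against 20.2% of all genes. The libraries of both groups did not overlap for 6 of the 9, against 49.2% of all genes. At an FDR under 0.1 there were 3, Igf1 and Igfbp4 higher and Igf1r lower, against 9.73% of all genes. The median log2 difference over the 9 genes was 0.70 (6 above 0 and 3 below), beside -0.01 over all genes tested, and over the 6 binding proteins it was 0.75. Igf1 was called in 5 and Igfbp4 in 6 of 9 alternative fits, DESeq2 included, so that both stood at the edge of the threshold. Lying above all 6 other libraries, as both AngII libraries did for Igf1 and Igfbp4, was a feature of 11.9% of all genes.

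In AngII+2W against CTRL, 0 of the 9 genes and 0% of all genes were called by edgeR, while 3 of the 9 (Igfbp2, Igfbp3 and Igfbp6) and 10.7% of all genes had an unadjusted p under 0.05. DESeq2 called 373 genes (2.17%) in this comparison and none of the 9. Non-overlap was seen for 5 of the 9 genes and for 43.8% of all genes. In AngII+3W against CTRL, 0 of the 9 genes and 0.285% of all genes were called, 3 of the 9 (Igf1r, Igfbp6 and Igfbp7, all lower) and 12.5% of all genes had an unadjusted p under 0.05, and DESeq2 called Igfbp7 and 3.62% of the genes it could adjust. Non-overlap held for 4 of the 9 genes, against 38.1%. In AngII+2W against AngII, 0 of the 9 and 0.163% of all genes were called, 2 of the 9 (Igf1 and Igfbp4, both lower) and 15% of all genes had an unadjusted p under 0.05, and DESeq2 called Igf1 and Igfbp4 and 3.99% of all genes. Here 3 of the 9 genes did not overlap, against 54.2%. Between AngII and AngII+3W, 2 of the 9 genes were called, both lower, against 1.32% of all genes called lower and 1.61% called in either direction. DESeq2 called 4 (Igf1, Igfbp4, Igfbp6 and Igfbp7), against 6.24%, and all 6 binding proteins had a log2 difference below 0 (median -0.69, beside 0.04 over all genes). Igf1 and Igfbp4 also had an unadjusted p under 0.05 there, which makes 4 of the 9, against 17.8%, and 6 of the 9 did not overlap, against 49.1%. Lying below all 6 other libraries, as both AngII+3W libraries did for Igfbp6 and Igfbp7, was a feature of 5.1% of all genes.

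**Figure D3:**
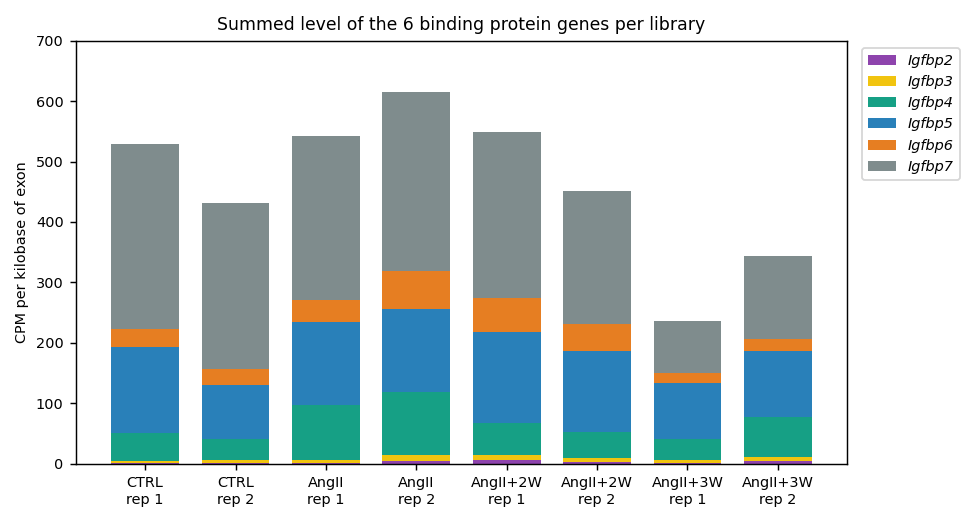
Summed level of the 6 binding protein genes in each library, in CPM per 1000 bases of exon (vertical axis, from 0), with each gene's part as a colored segment. The sum was 236 and 343 in the AngII+3W libraries and 431 to 615 in the other 6, and Igfbp7 (gray) was the largest part in all but AngII+3W replicate 1.

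The makeup of the binding protein transcripts also differed between groups. Their summed level per 1000 bases was 529 and 431 (CTRL), 543 and 615 (AngII), 549 and 452 (AngII+2W) and 236 and 343 (AngII+3W). Both AngII+3W libraries were lowest. Igfbp7 made up 57.7% and 63.8% (CTRL), 49.98% and 48.1% (AngII), 49.99% and 48.7% (AngII+2W) and 36.4% and 39.9% (AngII+3W) of this sum. The share of Igfbp4 was 8.77% and 8.05% (CTRL), 16.6% and 17.0% (AngII), 9.63% and 9.65% (AngII+2W) and 15.2% and 19.4% (AngII+3W). Both AngII and both AngII+3W libraries thus had a higher share than the other 4. Igfbp4 itself was above both CTRL libraries in AngII and in AngII+3W replicate 2, but not in AngII+3W replicate 1. Set against both growth factors, the binding protein transcripts were 34.9 and 48.0 times as abundant (CTRL), 17.8 and 21.1 times (AngII), 35.8 and 47.0 times (AngII+2W) and 16.8 and 25.0 times (AngII+3W). AngII and AngII+3W both lay below CTRL and AngII+2W in this ratio, the former with more growth factor transcript and the latter with less binding protein transcript. These are ratios of transcripts, not of proteins, and were not tested.

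In AngII against CTRL, where 5.1% of all genes were called, markers of several cell types were called. Of 5 mesothelial and 4 brown adipocyte markers, 1 of each list was called higher. Of 7 smooth muscle and 4 Schwann cell markers, 6 and 1 were called lower. All 7 fibroblast markers had a log2 difference above 0 in AngII against CTRL and 1 of them, Lum, was called, with sums of 685 to 1178 CPM in CTRL, 2025 to 2884 CPM in AngII, 1271 to 2129 CPM in AngII+2W and 754 to 1601 CPM in AngII+3W. All 6 macrophage markers were above 0 and 4 were called higher, with sums of 153 to 225 CPM in CTRL, 477 to 673 CPM in AngII, 216 to 270 CPM in AngII+2W and 136 to 256 CPM in AngII+3W. No marker on these lists was at or under the floor in any group. The AngII libraries were highest in the macrophage sum as in Igf1 and Igfbp4, while in the fibroblast sum an AngII+2W library exceeded an AngII library. The part of these cells in the levels of Igf1 and Igfbp4 was not tested. Cardiac muscle markers had sums of 1843 to 4071 CPM in CTRL, 692 to 1074 CPM in AngII, 15.7 to 152 CPM in AngII+2W and 308 to 4798 CPM in AngII+3W. All 6 were below 0 in AngII against CTRL, and 0 were called by edgeR or DESeq2 or had an unadjusted p under 0.05 (smallest FDR 0.365). Without CTRL replicate 1 and AngII+3W replicate 1, a fit added after the data were seen, Igf1 (log2 2.23, FDR 0.0247) and Igfbp4 (log2 1.48, FDR 0.0125) were called higher in AngII than in CTRL, and both were called lower in AngII+2W than in AngII (FDR 0.0445 and 0.0236).

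**Figure D4:**
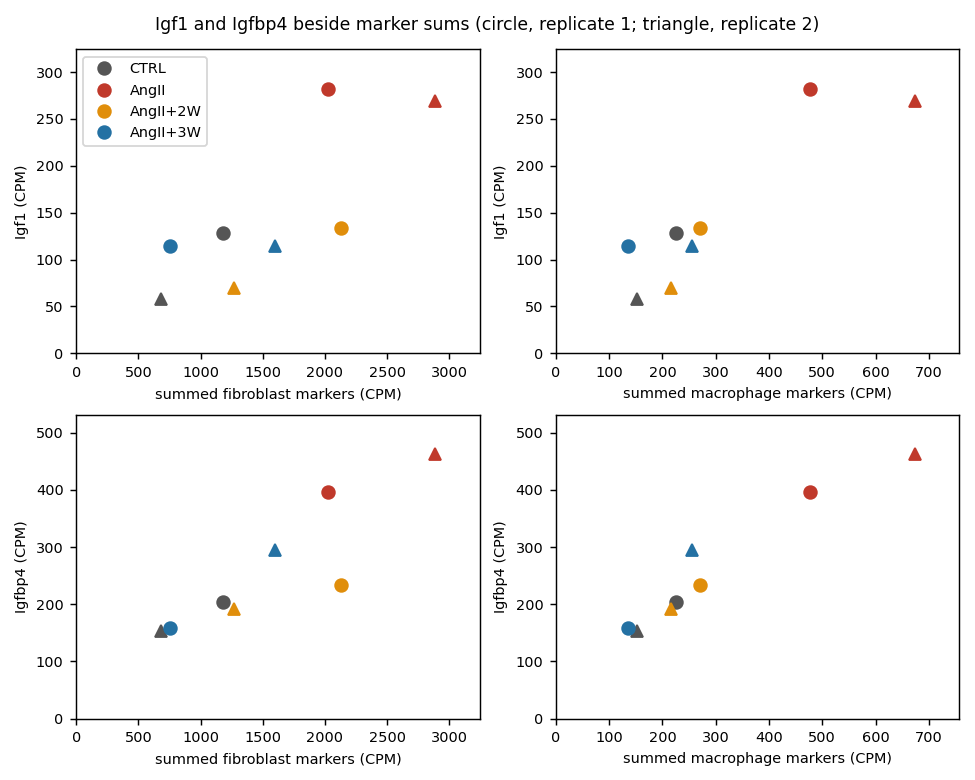
Level of Igf1 (upper row) and Igfbp4 (lower row) in CPM against the summed level in CPM of 7 fibroblast markers (left) and 6 macrophage markers (right), 1 point for each of the 8 libraries. Circles are replicate 1 and triangles replicate 2. The AngII libraries are at the upper right in the macrophage panels, with 477 and 673 CPM of macrophage markers.

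For Igfbp6 and Igfbp7 in AngII+3W against AngII, 2 of the 6 macrophage markers and 1 of the 7 fibroblast markers were called lower, and 2 of the 4 Schwann cell markers were called higher, with sums of 56.5 to 60.8 CPM in AngII+3W and 11.7 to 14.6 CPM in AngII. Of the 7 smooth muscle and the 6 endothelial markers, edgeR called 0, 1 of each list had an unadjusted p under 0.05, and DESeq2 called 0. The macrophage and fibroblast sums of AngII+3W overlapped those of CTRL. The smooth muscle sum was below CTRL in both AngII+3W libraries (1731 to 3362 CPM against 7332 to 9416 CPM), and so were Igfbp6 and Igfbp7. It was also below CTRL in both AngII libraries (1707 to 2156 CPM), where Igfbp7 overlapped CTRL and Igfbp6 was above it. Mesothelial markers, whose sum was 45.2 to 66.6 CPM in CTRL, 73.5 to 77.4 CPM in AngII, 102.6 to 115 CPM in AngII+2W and 25.7 to 67.4 CPM in AngII+3W, were not called by edgeR (0 of 5, with 1 at an unadjusted p under 0.05 and 1 called by DESeq2). The part of these cells in the lower Igfbp6 and Igfbp7 was not tested. Without the 2 libraries with the most cardiac markers, the log2 difference was -1.32 for Igfbp6 (FDR 0.115) and -1.04 for Igfbp7 (FDR 0.0571).

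The genes whose log2 CPM followed Igfbp7 most closely over the 8 libraries were S100a6 (Pearson's r = 0.987), Mrgprf (0.986) and Npas2 (0.985). Npas2, a transcription factor of the circadian clock, had 19.2 to 27.2 CPM in the first 6 libraries and 3.17 and 6.45 CPM in AngII+3W. S100a6, a calcium-binding protein, had 50.7 to 64.5 CPM in those 6 and 25.2 and 33.3 CPM in AngII+3W, and Mrgprf had 9.40 to 14.3 CPM and then 4.03 and 6.61 CPM. For Igfbp6 they were Klrb1f (0.985, under 1 CPM in all libraries), Esd (0.962) and Plekhf1 (0.960). Esd moved far less than Igfbp6, from 46.3 to 58.9 CPM. These values describe 8 libraries that fall into 4 groups, and the genes were picked out of 17182 for their likeness.

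**Figure D5:**
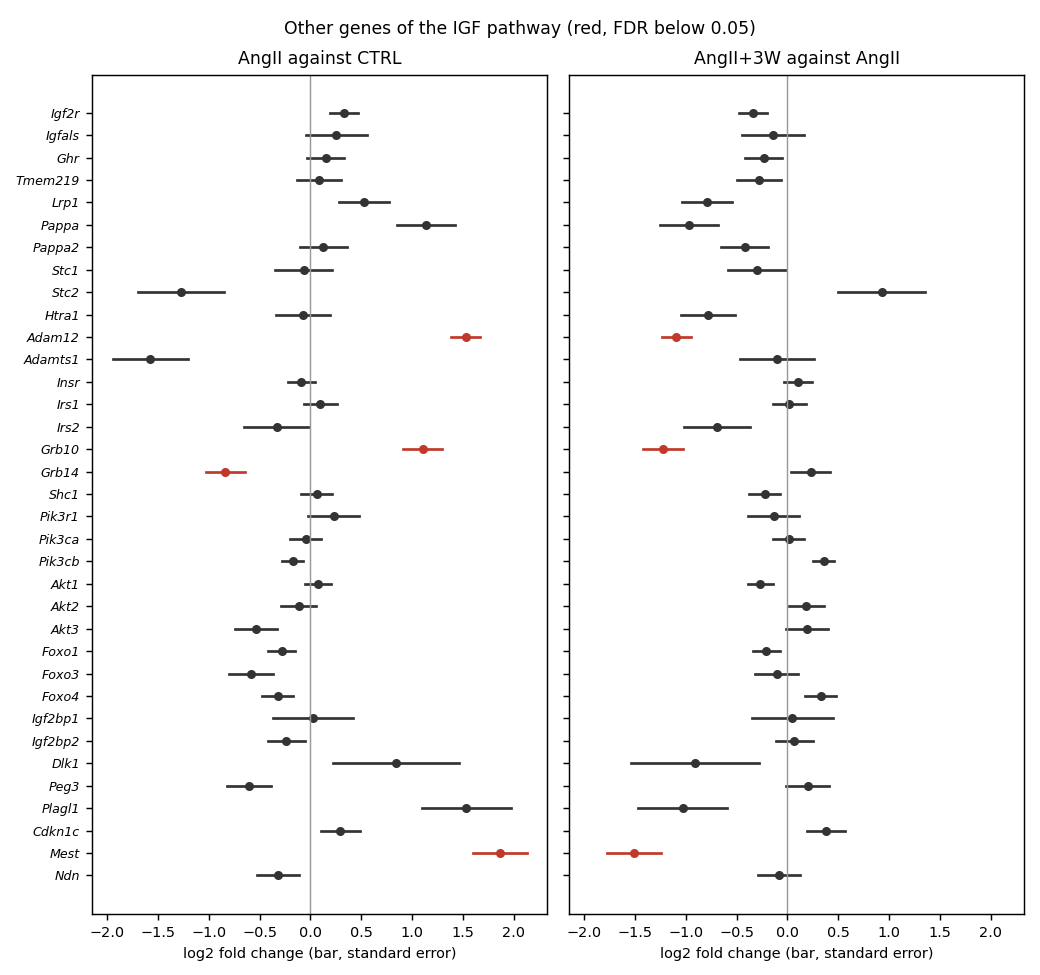
Log2 fold change (horizontal axis) with its standard error (bar) for 35 of the 36 other genes tested in the IGF pathway (vertical axis), in AngII against CTRL (left) and AngII+3W against AngII (right). Red marks an FDR under 0.05, reached by Adam12, Grb10, Mest and Grb14 on the left and by Adam12, Grb10 and Mest on the right.

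Other genes of the pathway were taken from a list of 41, which covered proteases, signaling genes, genes of IGF clearance, Igf2 mRNA-binding proteins and imprinted growth genes. Of these, 36 were tested, H19 and Meg3 were not analysed here, and Igfbp1, Igfbpl1 and Igf2bp3 had too few counts. In AngII against CTRL, 3 were called higher and 1 lower (5.1% of all genes were called), with a median log2 difference of 0.03 beside -0.01 over all genes. There, 12 had an unadjusted p under 0.05, against 20.2% of all genes, and DESeq2 called 7, against 9.24%. Of these 36, edgeR called 0 in AngII+2W against CTRL (4 at an unadjusted p under 0.05, against 10.7% of all genes). DESeq2 called 1 there, against 2.17%. In AngII+3W against CTRL edgeR called 0 (8 at an unadjusted p under 0.05, against 12.5%), and DESeq2 called 4, against 3.62% of the genes it could adjust. Adam12 was called lower in AngII+2W against AngII (0.163% of all genes called), and 3 genes were called lower in AngII+3W against AngII (1.32% of all genes called lower). At an unadjusted p under 0.05 there were 7 in AngII+2W against AngII (15% of all genes) and 9 in AngII+3W against AngII (17.8%). DESeq2 called 3 in the former (3.99%) and 6 in the latter (6.24% of the genes it could adjust).

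Of the 7 proteases of the binding proteins and their inhibitors, only Adam12, a metalloprotease that cleaves IGFBP3 and IGFBP5, was called. It had 46.8 and 58.3 (CTRL), 144 and 159 (AngII), 58.1 and 53.1 (AngII+2W) and 71.4 and 70.9 CPM (AngII+3W). Adam12 rose 2.88-fold in AngII (log2 1.53, SE 0.144, FDR 0.0053) and was 2.73-fold lower in AngII+2W (FDR 0.0290) and 2.13-fold lower in AngII+3W (FDR 0.0223) than in AngII. Pappa, which encodes the protease of IGFBP4, had 7.80 and 7.01 CPM in CTRL and 21.004 and 11.5 CPM in AngII, with a log2 difference of 1.13 that missed the threshold (FDR 0.0670). The libraries of Htra1, a serine protease, overlapped between CTRL and AngII (log2 -0.07), and Adamts1, a metalloprotease of the matrix, had a log2 difference of -1.57 (FDR 0.0536). The call of Adam12 in AngII against CTRL held in the 9 alternative fits and without each library in turn, apart from AngII replicate 2 (FDR 0.0575). That in AngII+2W against AngII also held in the 9 alternative fits, but among the 8 fits that left out a library it held only without AngII+3W replicate 1 or 2.

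Of the 16 genes of receptor signaling, Grb10 was called higher and Grb14 lower in AngII against CTRL. Both encode adaptor proteins that bind activated insulin and IGF1 receptors and restrain them. Grb10 had 73.3 and 54.0 (CTRL), 122 and 152 (AngII), 77.4 and 66.0 (AngII+2W) and 54.5 and 62.8 CPM (AngII+3W). It rose 2.15-fold in AngII (log2 1.10, SE 0.192, FDR 0.0229) and was 2.34-fold lower in AngII+3W than in AngII (FDR 0.0324). Grb14 had 59.5 and 68.1 (CTRL), 41.0 and 30.4 (AngII), 42.1 and 56.4 (AngII+2W) and 42.0 and 41.6 CPM (AngII+3W). Its fall in AngII (log2 -0.84, SE 0.191) passed by a narrow margin (FDR 0.0497) and held in 5 of 9 alternative fits, with an FDR of 0.0503 under DESeq2's size factors, and, with a library left out, only without AngII+3W replicate 1 or 2. Pik3r1, a regulatory subunit of PI3K, and Insr, the insulin receptor, both among the signaling genes with the highest levels, had log2 differences of 0.23 and -0.09 in AngII against CTRL.

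Of 6 imprinted growth genes tested, Mest, a paternally expressed gene, was called. It had 4.29 and 5.46 (CTRL), 13.8 and 21.7 (AngII), 7.84 and 6.18 (AngII+2W) and 5.97 and 6.50 CPM (AngII+3W). Mest rose 3.64-fold in AngII (log2 1.86, SE 0.265, FDR 0.0150) and was 2.85-fold lower in AngII+3W than in AngII (FDR 0.0428). Peg3, Cdkn1c and Ndn, the other imprinted genes with the highest levels, had log2 differences of -0.60, 0.29 and -0.32 in AngII, and none passed. The call of Grb10 in AngII against CTRL held only without AngII+3W replicate 1 or 2 among the fits that left out a library, and that of Mest was lost without CTRL replicate 1 (FDR 0.0977) and without AngII replicate 2 (FDR 0.102). Between AngII and AngII+3W, the calls of Adam12, Grb10 and Mest were each lost in at least 5 of the 8 fits that left out a library, AngII replicate 2 among them. Without CTRL replicate 1 and AngII+3W replicate 1 together, the calls of Grb14 in AngII against CTRL (log2 -0.94, FDR 0.0584) and of Mest in AngII+3W against AngII (log2 -1.44, FDR 0.102) were lost.

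Of the 5 tested genes of clearance and transport, edgeR called 0 in the 5 comparisons. All 5 were above 0 in AngII against CTRL and below 0 in AngII+3W against AngII, comparisons that share the AngII libraries. Lrp1, an endocytic receptor, had log2 differences of 0.53 (FDR 0.280) and -0.79 (FDR 0.156) in these comparisons. Igf2r, which takes up IGF2 for degradation, had 0.33 (FDR 0.237) and -0.34 (FDR 0.262), and Ghr, the growth hormone receptor, had 0.15 and -0.23. Igf2r had an unadjusted p under 0.05 in both, and Lrp1 in the latter, where DESeq2 called 1 of the 5. Neither Igf2bp1 nor Igf2bp2, which encode proteins that bind Igf2 mRNA, was called by edgeR or DESeq2 in the 5 comparisons or had an unadjusted p under 0.05, with log2 differences of 0.02 and -0.24 in AngII against CTRL.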

How the data were processed

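RNA-sequencing of mouse aorta was analysed from 8 libraries. The authors depleted ribosomal RNA, sequenced paired 100-base reads in a single lane, and estimated transcript counts with Salmon in the ARMOR workflow (genome build GRCm38.p6), and the deposited table holds expected counts per gene as whole numbers, without normalization. The table gives no transcript lengths, and no length offset was applied. Library totals were 18130441 to 21498200. Their precision is counting error only and is small beside the spread between the pools of mice. Samples were grouped by their labels. All 8 libraries were fitted in edgeR 4.0.16 (R 4.3.3, limma 3.58.1) after filterByExpr and TMM, with 1 coefficient per group and 4 residual degrees of freedom. Tests were quasi-likelihood F tests in edgeR's older form, and p-values (two-sided) were adjusted over 17182 genes (Benjamini-Hochberg, FDR). Standard errors are absolute log2 fold changes divided by the square root of F. The code was tested on simulated data.

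The 9 genes, the pathway list and the marker lists were chosen with earlier results of these data known. The genes named are the 9 genes, every pathway gene with an FDR under 0.05, up to 3 genes per pathway list with the highest mean level, and for each of the 9 past the threshold the 3 genes with the highest Pearson correlation (log2 CPM, prior count 2). The values of 1 pathway gene are not reported here, although it stays in the counts and medians of its list. Outside this rule, Pappa, Lum, Polr2b, Gm49394, Gm34648, Igf1os, Igf2os and the markers of each cell type are named or summed. Pappa and Lum were chosen after their values were seen. Levels per 1000 bases use the union of exons in a GRCm38 annotation that holds 35507 of the 35896 identifiers. Near-identical copies were searched with BLAST 2.17.0 (at least 95% identity over at least 100 bases). Besides that of Igf2 with Gm49394, the matches found were short stretches of Igfbp4. The longest was 144 bases, or 3.76% of its longest coding transcript. By gene span, antisense genes also lie over Igf1 (Igf1os, 5117 bases) and Igf2 (Igf2os, 7124 bases). Alternatives were DESeq2's size factors or library totals, 2 other filters, DESeq2 1.42.0, the newer quasi-likelihood fit, only the 2 groups compared, the replicate number as a block, leaving out each library, and, chosen after the data were seen, leaving out CTRL replicate 1 and AngII+3W replicate 1.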

Additional observations from a re-analysis of the deposited data

Results flagged for a closer look

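The levels of Igfbp6 and Igfbp7 differed between the end of the infusion and 3 weeks after it, by the direct comparison of AngII+3W with AngII in edgeR's quasi-likelihood test. These groups also differ by 3 weeks of age. Igfbp6 was lower by this comparison with a log2 difference of -1.4263 (FDR 0.0436), and Igfbp7 with -1.346 (FDR 0.0428). For Igfbp6 the differences from CTRL were 0.79 in AngII and -0.63 in AngII+3W, on either side of 0, and for Igfbp7 they were -0.03 and -1.38. None of these differences from CTRL passed the threshold. Both calls were lost in most of the fits that left out a library. Groups of 2 libraries do not allow a test of whether a single library stands apart from its group.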

How the results depend on the processing

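The 9 genes had 27 to 19405 counts per library, and each group holds 2 libraries. Over 765 refitted log2 fold changes of the 9 genes, 689 kept their direction and their side of the threshold, 30 passed it newly, 21 no longer passed it and 25 changed sign. Genes called in AngII against CTRL numbered 1588 with DESeq2 (877 in the fit reported, both of 17182). They numbered 1132 of 24427 with every gene of at least 1 count and 942 of 15048 with at least 10 counts in every library. With the newer fit they numbered 937 of 17182, and with only the 2 groups compared 1149 of 16577. In AngII+2W against CTRL (0 reported) there were 5 with every gene of at least 1 count, 373 with DESeq2 and 7 without CTRL replicate 1 and AngII+3W replicate 1. In AngII+3W against CTRL (49) there were 1 with library totals, 200 with at least 1 count, 119 with at least 10 counts in every library, 585 with DESeq2, 0 with only the 2 groups compared (1302 at an unadjusted p under 0.05), 4 with the replicate block and 7 without the 2 libraries. In AngII+2W against AngII (28) there were 18, 242, 685 and 884 with library totals, at least 1 count, DESeq2 and only the 2 groups, and 755 without the 2 libraries. In AngII+3W against AngII (276) there were 179, 522, 968 and 0 with the same 4 alternatives (2528 at an unadjusted p under 0.05 in the last). Of the 9 genes, those called in AngII against CTRL (0 reported) numbered 2 with at least 1 count (Igf1, Igfbp4), 1 with at least 10 counts and 1 with the newer fit (Igfbp4). They numbered 4 with DESeq2 and 2 with only the 2 groups (Igf1, Igfbp4). In AngII+3W against CTRL (0) it was 1 (Igfbp7) with at least 1 count, at least 10 counts and DESeq2. In AngII+2W against AngII (0) it was 2 (Igf1, Igfbp4) with DESeq2, with only the 2 groups and without the 2 libraries. In AngII+3W against AngII (2) it was 4 with DESeq2 and 0 with library totals, with only the 2 groups and without the 2 libraries. Without each library in turn, genes called ranged from 0 to 1504 in AngII and 0 to 275 in AngII+2W against CTRL, 0 to 463 in AngII+3W against CTRL, and 0 to 262 in AngII+2W and 3 to 1005 in AngII+3W against AngII, while calls among the 9 ranged from 0 to 2, 0 to 0, 0 to 1, 0 to 0 and 0 to 3 in the same order. The cause of these changes was not tested. Some of these settings also change the number of genes or samples. Where a left-out library leaves a single one, it is assumed to vary like the other groups.

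Same-numbered libraries come from different mice, and the correlations of their differences within groups were -0.04 to 0.25, so the numbers were not taken to pair the samples. With the replicate block, 1 of the 9 genes was called in AngII against CTRL (Igf1, FDR 0.0384), and 870 of 17182 genes in all. In AngII+3W against AngII, 0 of the 9 were called (Igfbp6 -1.42, FDR 0.0632, and Igfbp7 -1.35, FDR 0.0609), and 221 of 17182 genes in all. Among the pathway genes, Grb14 in AngII against CTRL and Grb10 and Mest in AngII+3W against AngII no longer passed with this block.

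Changes of sign were found for differences that had not been called. Igfbp7 in AngII against CTRL was 0.0033 with library totals and 0.0356 without the 2 libraries, Igfbp5 in AngII+3W against CTRL 0.2936 and Igfbp2 in AngII+3W against AngII 0.5296 without the 2 libraries. Without each library in turn, log2 differences from CTRL ranged from -0.1155 to 0.0453 (Igfbp7) and -0.0452 to 0.6368 (Igfbp5) in AngII, from -0.426 to 0.8174 (Igf1) and -0.5241 to 0.0226 (Igf2) in AngII+2W, and from -0.1806 to 0.9728 (Igf1), -0.4138 to 0.0927 (Igf2), -0.5547 to 1.9358 (Igfbp2), -0.2306 to 0.7161 (Igfbp4) and -0.5116 to 0.1704 (Igfbp5) in AngII+3W. Those from AngII ranged from -0.0866 to 0.3905 (Igf2), -0.3628 to 0.2998 (Igfbp3), -0.0596 to 0.1274 (Igfbp5) and -0.295 to 0.4832 (Igfbp6) in AngII+2W, and from -0.0968 to 0.4011 (Igf1r), -1.9645 to 1.0806 (Igfbp2) and -0.6547 to 0.0193 (Igfbp3) in AngII+3W. With the longest coding transcript in place of the exon union, the order of levels in CTRL was the same.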
